A study of Mus musculus with 15 samples.

Results

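The 5 retinoid receptor genes Rxrg, Rxra, Rxrb, Rarg and Rara were followed through 15 bulk RNA-seq libraries of early innate lymphoid progenitors sorted from mouse bone marrow. They were taken by gene symbol from the deposited expression table. All 5 were among its 12798 genes, and all 5 passed the filter on low values that left 12572 genes for testing. Rxrg was chosen because earlier results of these libraries showed it rising along the progenitor series, so its levels are described and not tested. The remaining 4 receptors were added as its family members and were tested together with every other gene.

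The study compared progenitors at successive steps towards innate lymphoid cells (ILC), the tissue-resident lymphocytes that lack antigen receptors, and asked what changes when the transcription factor Tcf7 is missing. All mice were C57BL/6, all cells came from bone marrow, and libraries were prepared from total RNA with a low-input SMARTer kit and Nextera XT in a first batch of 9 libraries and a second batch of 6. The all-lymphoid progenitors (ALP_WT, n = 3) came from Tcf7EGFP/+ reporter mice and were lineage-negative, Kit+ and 2B4+, lacked integrin a4b7, and were Flt3high and IL-7Ra+. The ILC progenitors (ILCP_WT, n = 2) came from the same genotype and expressed a4b7, Tcf7, Thy1 and IL-7Ra. The early ILC progenitors (EILP_WT, n = 3) carried Tcf7EGFPnull/+, a reporter that is itself a null allele, so these controls had a single working copy of Tcf7. Their knockout counterparts (EILP_KO, n = 2) were Tcf7EGFPnull/-. Both were gated as a4b7+ and Tcf7 reporter-positive without Thy1. Specified EILP (sEILP_WT, n = 2) and committed EILP (cEILP_WT, n = 3) came from mice with the Tcf7GFP and Zbtb16GFP reporters and were split into Zbtb16low Flt3high and Zbtb16high Flt3low cells. Reporter strain and progenitor stage therefore cannot be told apart in EILP_WT against ALP_WT, sEILP_WT against ALP_WT, ILCP_WT against cEILP_WT, and ILCP_WT against EILP_WT. The same holds wherever EILP_WT or EILP_KO is set beside sEILP_WT or cEILP_WT.

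Retinoic acid, which cells make from vitamin A, acts through the retinoic acid receptors RARα, RARβ and RARγ, encoded by Rara, Rarb and Rarg. These bind DNA as heterodimers with a retinoid X receptor, RXRα, RXRβ or RXRγ, encoded by Rxra, Rxrb and Rxrg. Without ligand the pair holds co-repressors on its target genes, and ligand exchanges these for co-activators. RXR proteins are also the shared partners of other nuclear receptors, among them the PPAR, LXR, thyroid hormone and vitamin D receptors. In lymphoid tissue retinoic acid is known for inducing the gut-homing molecules a4b7 and CCR9 and for its role in the balance between ILC subsets of the intestine.

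The genes lie on 5 chromosomes (RefSeq, GRCm38.p6). Rxrg spans chr1:167598362-167639623 and Rxra spans chr2:27676445-27763319, both on the plus strand. Rxrb spans chr17:34031812-34038403 and Rara spans chr11:98927800-98974942, also on the plus strand. Rarg spans chr15:102234938-102257522 on the minus strand. The 250 bases before each RefSeq start gave 12 windows for the 5 receptors. These were searched on both strands for AGGTCA (reverse complement TGACCT), the half-site that retinoid receptors and many other nuclear receptors bind, and for CTTTGA (reverse complement TCAAAG), the core of sites bound by Tcf7 and its relatives. AGGTCA was found in 3 of the 12 windows, 1 each of Rxrg, Rarg and Rxra, and CTTTGA in 0 of them. Among 32851 windows of the same length over all genes, 14.0% held AGGTCA and 13.8% held CTTTGA. The receptor windows are not all separate or free of exons. The Rara windows chr11:98937446-98937695 and chr11:98937468-98937717 overlap. All 250 bases of the Rxrb window chr17:34032100-34032349 are in Rxrb exons. Of the Rxrb window chr17:34031562-34031811, 121 bases are in exons of Slc39a7 and Gm20427. The 3 windows with the half-site are printed, together with the window before the first start of Rxrg, since the report describes Rxrg and Rarg at most length. Sequences are from RefSeq (GRCm38.p6), read 5′ to 3′ on the strand of the gene, and capitals mark the half-site in either orientation.
Rxrg, first start, chr1:167598112-167598361, plus strand, no capitals: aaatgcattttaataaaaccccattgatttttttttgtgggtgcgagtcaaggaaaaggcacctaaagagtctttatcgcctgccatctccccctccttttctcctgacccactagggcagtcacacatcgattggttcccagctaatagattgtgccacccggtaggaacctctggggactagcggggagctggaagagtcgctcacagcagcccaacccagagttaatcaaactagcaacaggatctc
Rxrg, second start, chr1:167618015-167618264, plus strand: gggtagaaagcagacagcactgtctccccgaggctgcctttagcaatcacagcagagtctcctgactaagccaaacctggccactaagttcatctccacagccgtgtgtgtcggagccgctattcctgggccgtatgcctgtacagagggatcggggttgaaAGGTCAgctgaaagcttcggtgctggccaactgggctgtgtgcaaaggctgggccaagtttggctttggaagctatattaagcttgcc
Rarg, chr15:102257523-102257772, minus strand: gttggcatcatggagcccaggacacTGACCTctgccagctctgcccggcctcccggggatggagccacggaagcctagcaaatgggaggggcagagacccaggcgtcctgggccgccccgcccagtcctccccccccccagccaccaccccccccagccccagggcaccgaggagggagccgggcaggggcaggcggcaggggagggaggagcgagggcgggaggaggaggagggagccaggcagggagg
Rxra, downstream start, chr2:27709042-27709291, plus strand: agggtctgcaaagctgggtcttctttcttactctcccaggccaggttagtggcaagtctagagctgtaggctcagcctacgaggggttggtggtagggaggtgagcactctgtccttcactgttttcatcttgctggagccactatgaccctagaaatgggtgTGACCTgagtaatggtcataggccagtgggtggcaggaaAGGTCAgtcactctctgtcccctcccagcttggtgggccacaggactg
In the Rxrg window the half-site begins 88 bases before the start, and in the Rarg window 225 bases before it. In the Rxra window it begins 87 and 48 bases before the start. The Rarg copy and the Rxra copy at 87 are on the strand opposite to the gene. A match describes the letters in these windows. The libraries hold no measurement of binding.

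All values below are the deposited log2 values, which sum to nearly the same per-million total in every library on the linear scale. Whether they are also divided by transcript length is not given in the sources used here, so levels are compared between groups for one gene and not between genes. Read depth is unknown, because the table holds no counts. In each library between 747 and 2575 genes share a single lowest value, which lies between -4.83 and -4.41, and a gene at that value is called listed at the lowest value. Replicates are not said to come from separate animals, so p-values measure the spread between these libraries. The check of the targeted gene gave Tcf7 values of 6.97 to 7.65 in EILP_KO, below the 9.89 to 11.34 of EILP_WT, sEILP_WT, cEILP_WT and ILCP_WT and above the 1.91 to 2.64 of ALP_WT. The reporter is part of the Tcf7 locus, and whether its transcript is counted is not given. Among the gate genes, Il7r was listed at the lowest value in EILP_WT replicate 1, at 6.34 and 7.58 in the other two EILP_WT libraries, and at -1.30 and -0.99 in EILP_KO. EILP_WT replicate 3 had the most genes at the lowest value, 2575.

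Among the RXR genes, Rxrg, which encodes RXRγ, was at the lowest value in all 3 ALP_WT libraries and was highest in ILCP_WT. In ALP_WT it was listed at -4.60, -4.83 and -4.83. In sEILP_WT it was 1.83 in replicate 1 and at the lowest value, -4.83, in replicate 2. In cEILP_WT it was 7.02, 6.56 and 5.97. The sorted split of EILP by Zbtb16 and Flt3 thus separated Rxrg without overlap, with every committed library above both specified libraries. In the undivided EILP_WT gate, from another reporter strain, Rxrg was 4.12, 5.29 and 7.22, a range that reached from below to above the committed libraries. In ILCP_WT it was 7.93 and 8.43, above each of the other 13 libraries. EILP_KO had 2.99 and 3.54, below all EILP_WT and cEILP_WT libraries and above all sEILP_WT and ALP_WT libraries.

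By group mean Rxrg ran from ILCP_WT (8.18 ± 0.35, SD, n = 2) through cEILP_WT (6.52 ± 0.53, n = 3), EILP_WT (5.54 ± 1.56, n = 3), EILP_KO (3.27 ± 0.39, n = 2) and sEILP_WT (-1.50 ± 4.71, n = 2) to ALP_WT (-4.75 ± 0.13, n = 3). Neighbours in this order overlapped between cEILP_WT and EILP_WT and between sEILP_WT and ALP_WT, and were separate elsewhere. The sEILP_WT mean describes neither of its libraries, which lie on both sides of it. No fold change against ALP_WT is given, since all its libraries are at the lowest value. With the batch term fitted, Rxrg was 1.58 higher on the log2 scale in ILCP_WT than in cEILP_WT and 2.56 higher than in EILP_WT, as descriptions.

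**Figure D1:**
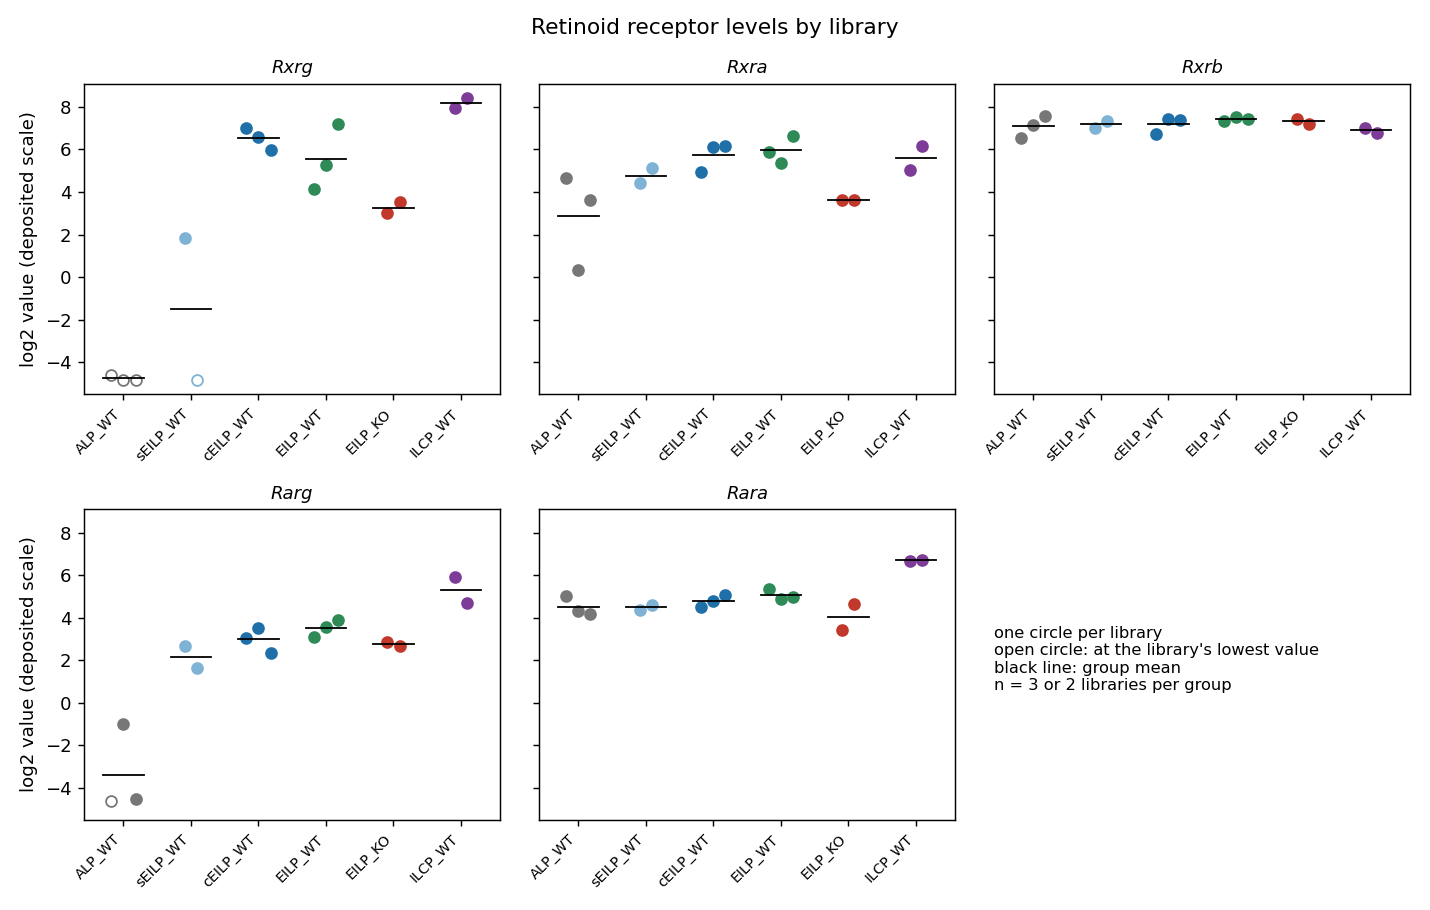
Deposited log2 values of the 5 receptor genes (vertical axis) in the 6 groups (horizontal axis), with 1 circle per library, open where the gene is at that library's lowest value, and a black line at the group mean. Rxrg climbs from open circles in ALP_WT to 7.93 and 8.43 in ILCP_WT, Rarg separates ALP_WT from every other group, Rara stands apart in ILCP_WT, and Rxrb stays between 6.54 and 7.56 throughout.

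Rxra, which encodes RXRα, the family member best known from liver and myeloid cells, varied most within ALP_WT. It was 4.66, 0.35 and 3.62 there, 4.41 and 5.11 in sEILP_WT, and 4.92, 6.11 and 6.17 in cEILP_WT. EILP_WT had 5.87, 5.37 and 6.64, and ILCP_WT had 5.05 and 6.16. In EILP_KO it was 3.61 and 3.62. The highest ALP_WT library thus lay inside the sEILP_WT range and the lowest stood more than 3 log2 units below the other two, while both knockout libraries lay below every EILP, cEILP and ILCP library. Group means ordered as EILP_WT (5.96 ± 0.64), cEILP_WT (5.73 ± 0.70), ILCP_WT (5.61 ± 0.79), sEILP_WT (4.76 ± 0.50), EILP_KO (3.61 ± 0.01) and ALP_WT (2.88 ± 2.25), and the only neighbours without overlap were sEILP_WT and EILP_KO. The log2 difference of Rxra between EILP_WT and ALP_WT was 3.07 (SE 0.93, limma adjusted p = 0.107), and between ILCP_WT and ALP_WT it was 2.72 (SE 1.02, limma adjusted p = 0.103). Neither passed the threshold of 0.05. Both did without ALP_WT replicate 1, at 4.45 (adjusted p = 0.0346) and 3.98 (adjusted p = 0.0232). Over all their alternatives the adjusted p ranged from 0.0346 to 0.615 for the first and from 0.0232 to 0.88 for the second. Within the first batch, which holds that replicate, the EILP_WT minus ALP_WT difference was 0.96, and within the second it was 4.66.

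Rxrb, which encodes the broadly expressed RXRβ, was the most even of the 5. It was 6.54, 7.15 and 7.56 in ALP_WT, 7.03 and 7.35 in sEILP_WT, 6.73, 7.42 and 7.38 in cEILP_WT, 7.33, 7.52 and 7.43 in EILP_WT, 7.45 and 7.22 in EILP_KO, and 7.02 and 6.78 in ILCP_WT. All neighbouring groups overlapped, and the group means spanned only 6.90 to 7.43. No pairwise difference passed the test. The largest was a log2 difference of -0.56 for ILCP_WT against EILP_WT (SE 0.29, limma adjusted p = 0.289), where both ILCP_WT libraries lay below all 3 EILP_WT libraries.

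Among the RAR genes, Rarg, which encodes RARγ, separated ALP_WT from every later progenitor. In ALP_WT it was at the lowest value of -4.60 in replicate 1, -0.99 in replicate 2 and -4.53 in replicate 3. In sEILP_WT it was 2.66 and 1.65, in cEILP_WT 3.07, 3.53 and 2.36, and in EILP_WT 3.09, 3.57 and 3.91. EILP_KO had 2.88 and 2.69, and ILCP_WT had 5.89 and 4.70. No ALP_WT library overlapped any other group, and both ILCP_WT libraries lay above all others. The order of means was ILCP_WT (5.30 ± 0.84), EILP_WT (3.52 ± 0.41), cEILP_WT (2.99 ± 0.59), EILP_KO (2.79 ± 0.13), sEILP_WT (2.16 ± 0.71) and ALP_WT (-3.37 ± 2.06). EILP_WT overlapped cEILP_WT, and cEILP_WT overlapped EILP_KO. The other neighbours did not overlap.

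Rarg rose in EILP_WT against ALP_WT by 6.93 on the log2 scale (SE 1.21, limma adjusted p = 0.00935) and in ILCP_WT against ALP_WT by 8.69 (SE 1.32, adjusted p = 0.00135). The size of both differences rests on ALP_WT values below 0, where the scale is set by the offset used before the log. With values below 0 raised to 0 the differences were 3.42 and 5.24. The differences within the first and second batch were 7.93 and 6.67 for EILP_WT, and 10.49 and 7.46 for ILCP_WT. The EILP_WT call was lost without EILP_WT replicate 3 (adjusted p = 0.0559) and over all alternatives its adjusted p ranged from 0.00359 to 0.304. The ILCP_WT call held without each of the 5 libraries. It was lost with only these groups (adjusted p = 0.0808), where limma called 403 of all genes. It was also lost in the second batch alone, which leaves 1 ILCP_WT library. These were 2 of its 16 alternatives. For sEILP_WT against ALP_WT the difference was 5.59 (SE 1.43), and both libraries were above all 3 ALP_WT libraries, but the limma adjusted p was 0.152. Without ALP_WT replicate 2 it was 0.0406, in a range of 0.0406 to 0.603 over the alternatives. Between later stages Rarg differed by 0.80 for cEILP_WT against sEILP_WT, 2.29 for ILCP_WT against cEILP_WT and 1.76 for ILCP_WT against EILP_WT, with limma adjusted p of 1.00, 0.341 and 0.475.

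The gene next to Rarg in the table is Itgb7, which encodes the beta chain of the a4b7 integrin by which ALP_WT was excluded and all other groups were sorted. It lies on the same strand, 1533 bases beyond the 3′ end of Rarg. Itgb7 averaged 6.89 ± 0.29 in ALP_WT and between 9.41 and 10.08 in the other groups. Over the 15 libraries, which share groups and normalization, its Pearson correlation with Rarg was 0.92, the eleventh highest of the genes tested. Whether reads running from one gene into the other contribute was not tested, and the strand setting of the counting is not given. On the chromosome of Rxrg, the nearest table gene shown here is Lrrc52, 131582 bases away. It was at the lowest value in all ALP_WT, sEILP_WT and EILP_KO libraries and in EILP_WT replicate 1, and reached 6.78 and 4.98 in ILCP_WT (r = 0.80 with Rxrg). Slc39a7 lies 122 bases from Rxrb on the opposite strand (r = 0.02). Cdc6, a replication licensing factor 3858 bases from Rara, had r = -0.61 with Rara.

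Rara, which encodes RARα, the receptor fused to PML in acute promyelocytic leukaemia, stood out only in ILCP_WT. It was 6.69 and 6.70 there. ALP_WT had 5.03, 4.29 and 4.16, sEILP_WT 4.36 and 4.62, cEILP_WT 4.51, 4.79 and 5.06, EILP_WT 5.36, 4.89 and 4.99, and EILP_KO 3.43 and 4.63. Both ILCP_WT libraries lay above the other 13, which ran from 3.43 to 5.36. Means ordered as ILCP_WT (6.70 ± 0.01), EILP_WT (5.08 ± 0.25), cEILP_WT (4.79 ± 0.27), ALP_WT (4.49 ± 0.47), sEILP_WT (4.49 ± 0.18) and EILP_KO (4.03 ± 0.85), and only ILCP_WT and EILP_WT did not overlap as neighbours. Rara rose in ILCP_WT against ALP_WT by 2.22 on the log2 scale (SE 0.47, limma adjusted p = 0.00937) and against cEILP_WT by 1.89 (SE 0.47, adjusted p = 0.0318). Against EILP_WT the difference was 1.60 (SE 0.47, limma adjusted p = 0.0625). Within the first and second batch the differences were 1.66 and 2.48 against ALP_WT, and 2.04 and 1.64 against cEILP_WT. The call against ALP_WT was lost without ILCP_WT replicate 2 (adjusted p = 0.0572, in a range of 0.00675 to 0.146 over the alternatives). The call against cEILP_WT was lost without any 1 of its 5 libraries, with adjusted p between 0.0682 and 0.144, and over all alternatives its adjusted p ranged from 0.0238 to 0.192.

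Across all 6 groups at once, a limma F test called 2 of the 4 tested receptors, Rarg (adjusted p = 0.0106) and Rara (adjusted p = 0.0421), and not Rxra (0.18) or Rxrb (0.674). By the same test 8.36% of all genes were called. The Rarg call was lost without ALP_WT replicate 1 (adjusted p = 0.0507). The Rara call was lost without either ILCP_WT library, at 0.181 and 0.174, and in 9 further fits that each left out a library of ALP_WT, sEILP_WT, cEILP_WT or EILP_WT, at 0.0532 to 0.0765. Fits of a single batch gave 0.0725 and 0.361 for Rarg and 0.124 and 0.17 for Rara.

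Read by comparison, the receptors that passed the test were few and all higher. In EILP_WT against ALP_WT, 1 of 4 tested receptors rose, Rarg, where 1.71% of all genes rose and 3.21% were called in either direction. In ILCP_WT against ALP_WT, 2 of 4 rose, Rarg and Rara, against 5.56% of all genes that rose and 13.4% called. In ILCP_WT against cEILP_WT, 1 of 4 rose, Rara, against 2.69% that rose and 7.41% called. In the other 4 comparisons limma called 0 of the 4 receptors. In sEILP_WT against ALP_WT 0.803% of all genes were called, and 1 receptor, Rarg, was at an unadjusted p under 0.05, as were 9.13% of genes. In cEILP_WT against sEILP_WT 0% of genes were called, and 0 receptors were at an unadjusted p under 0.05, where 5.15% of genes were. In ILCP_WT against EILP_WT 6.95% were called, and 1 receptor, Rara, was at an unadjusted p under 0.05, as were 22.3% of genes. In EILP_KO against EILP_WT 0.103% were called, and 2 receptors, Rxra and Rara, were at an unadjusted p under 0.05, as were 8.7% of genes. The comparisons with ALP_WT share its libraries, and those with ILCP_WT or EILP_WT share theirs, so these counts are not separate observations.

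**Figure D2:**
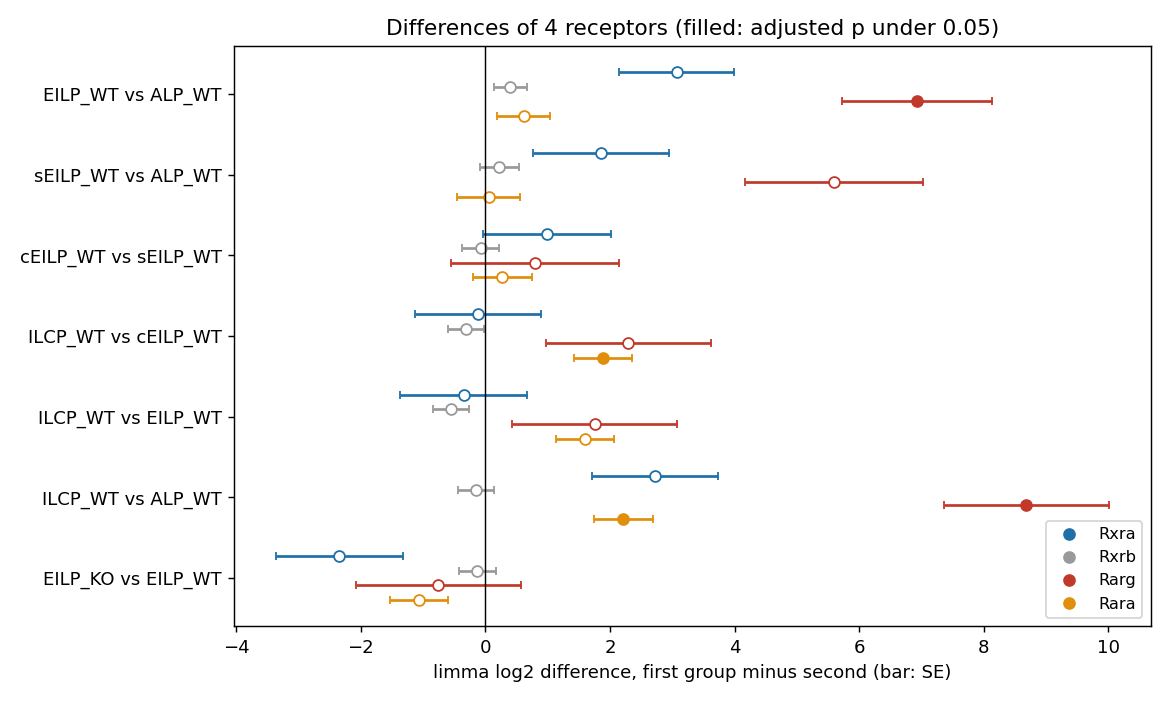
limma log2 differences (horizontal axis, first group minus second, bars ± 1 SE) of Rxra, Rxrb, Rarg and Rara in 7 comparisons (vertical axis), filled where the adjusted p is under 0.05. The filled circles are Rarg at 6.93 in EILP_WT and 8.69 in ILCP_WT against ALP_WT, and Rara at 2.22 and 1.89 in ILCP_WT against ALP_WT and cEILP_WT.

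By ranges, 4 of the 5 receptors were higher in every ILCP_WT library than in every ALP_WT library, where 22.4% of all genes were. The exception was Rxrb. Against cEILP_WT, 3 of 5 (Rxrg, Rarg and Rara) were higher without overlap, where 22.1% of genes were, and the same 3 against EILP_WT, where 14.8% were. Rxrb alone was lower in ILCP_WT than in EILP_WT without overlap, as were 17.5% of genes. In EILP_WT against ALP_WT, 3 of 5 (Rxrg, Rxra and Rarg) were higher without overlap, where 9.52% of genes were. Between committed and specified EILP the only receptor without overlap was Rxrg, where 11.5% of genes were higher in that way. The corresponding receptor in sEILP_WT against ALP_WT was Rarg, with 14.7% of genes higher. Since Rxrg was chosen for its rise, its place in these counts carries no support.

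In the Tcf7 knockout comparison, 4 of the 5 receptors were lower in both EILP_KO libraries than in all 3 EILP_WT libraries. They were Rxrg, Rxra, Rarg and Rara, and 9.62% of all genes were lower in this way. Since Rxrg was chosen for its rise, its place in this count carries no support. None of the 4 tested receptors passed the test. For Rxra the log2 difference was -2.34 (SE 1.02, limma adjusted p = 0.558), and for Rara it was -1.07 (SE 0.47, adjusted p = 0.558). Rarg differed by -0.75 (SE 1.32, adjusted p = 0.936) and Rxrb by -0.13 (SE 0.29, adjusted p = 0.964). Rxrg, described without a test, differed by -2.36 in the fit. In the first and second batch the differences were -1.71 and -3.67 for Rxrg, and -2.01 and -3.03 for Rxra. For Rarg they were -0.45 and -1.22, and for Rara -1.69 and -0.36. The signs of these 8 values follow from the lack of overlap given above, so they add no separate observation.

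Markers of other blood lineages also differed between groups and libraries, and their lists did not share a single order. The summed linear level of 12 of 12 myeloid and neutrophil markers was 4361 and 5717 in EILP_KO and 4157, 1463 and 549 in EILP_WT, with 0 of the 12 at the lowest value throughout either group. The EILP_WT library with the highest sum, replicate 1, had the lowest Rxrg and Rarg of its group and the lowest Il7r, and the library with the lowest sum, replicate 3, had the highest Rxrg, Rxra and Rarg. Rara did not run this way, being highest (5.36) in replicate 1, and the lowest Rxra of the group (5.37) was in replicate 2. In sEILP_WT the sum was 3290 to 3556, in cEILP_WT 1319 to 2603, in ALP_WT 1218 to 2211 and in ILCP_WT 227 to 1029. Ngp was at the lowest value in all sEILP_WT and ILCP_WT libraries. For 8 of 9 T lineage markers found in the table the sum was 418 to 596 in ILCP_WT, 71.2 to 163 in cEILP_WT, 36.4 to 187 in EILP_WT, 22.3 to 73.0 in sEILP_WT, 21.9 to 50.8 in ALP_WT and 10.1 to 28.8 in EILP_KO. Cd3e, Cd3d, Bcl11b, Cd4, Trac and Trat1 were each listed at the lowest value in EILP_KO, in both libraries, and none of the 8 was so in ILCP_WT. The 7 natural killer markers summed to 698 to 824.5 in ILCP_WT, 235 to 1015 in EILP_WT and 102 to 181 in ALP_WT. In EILP_KO these markers summed to 306 to 457, in sEILP_WT to 275 to 296 and in cEILP_WT to 315 to 431.5. Their part in the receptor levels was not tested, and in these bulk libraries fewer cells with a transcript and less of it per cell cannot be told apart. The 9 dendritic cell markers include Ccr9 and the gate gene Flt3. They summed to 2834 to 4112 in ALP_WT, 1850 to 2681 in sEILP_WT and 493 to 1293 in cEILP_WT. In EILP_WT the sum was 924 to 2341, in ILCP_WT 572 to 598 and in EILP_KO 1712 to 2708. Flt3 averaged 10.68 ± 0.26 in ALP_WT, 9.12 ± 0.49 in sEILP_WT and 7.31 ± 0.84 in cEILP_WT, so the sort selected part of the difference between these groups. For B lineage markers (5 of 9 in the table) the sum was 188 to 225 in ALP_WT and at most 124 elsewhere. The 9 erythroid and megakaryocyte markers summed to 419 to 1584 in EILP_KO, 136 to 525 in EILP_WT and 65.3 to 156 in ILCP_WT. Their sum was 19.8 to 228 in ALP_WT, 139 to 144 in sEILP_WT and 177 to 417 in cEILP_WT. Mast cell and basophil markers (6 of 8 in the table) separated ALP_WT, at 15.3 to 51.8, from the other groups, at 90.1 to 2014.

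The genes that supply, carry and answer retinoic acid were read from lists, beside the same summary over all tested genes. Of 27 genes of vitamin A uptake, storage and oxidation, 11 were in the table and tested. Limma called 0 of the 11 in each of the 7 comparisons, where 0% to 13.4% of all genes were called. Aldh1a1, which oxidises retinal to retinoic acid, was at the lowest value in all ALP_WT and ILCP_WT libraries. Dhrs4, Rdh11, Dhrs3 and Rdh14, short-chain dehydrogenases and reductases that act on retinoids, were above the lowest value in every library. Median log2 differences of the 11 were -0.75 in EILP_WT against ALP_WT, 0.48 in ILCP_WT against ALP_WT and 0.47 in EILP_KO against EILP_WT, where the medians over all tested genes were -0.01, -0.09 and 0.04. Of 6 genes for retinoic acid carriers and breakdown, only Fabp5, a fatty acid-binding protein that also carries retinoic acid, was in the table. It was 7.08 ± 0.10 in cEILP_WT and 6.02 ± 0.23 in ILCP_WT, and fell by 1.08 on the log2 scale (limma adjusted p = 0.0456), a call that was lost without any 1 of the 5 libraries (adjusted p up to 0.355 over all its alternatives).

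Of 14 RXR partner receptors, 12 were in the table and 9 were tested. Rarb, the third RAR gene and itself a textbook retinoic acid target, was at the lowest value in 12 of 15 libraries, the exceptions being 0.21 in EILP_KO, 1.90 in sEILP_WT and 0.29 in EILP_WT. Nr1h2, which encodes LXRβ, was even, at 6.60 to 6.99 by group mean. Limma called 1 of the 9, Pparg, the fatty acid receptor PPARγ, in ILCP_WT against cEILP_WT, where 2.69% of all genes rose and 7.41% were called. It called none in the other comparisons, where 0% to 13.4% of all genes were called. Pparg was 4.97 and 3.60 in ILCP_WT and at the lowest value in all 3 cEILP_WT libraries (adjusted p = 0.0149), and the call was lost without cEILP_WT replicate 2 (0.0522) or ILCP_WT replicate 2 (0.0946), in a range of 0.00507 to 0.192 over the alternatives. Pparg was also above the lowest value in some earlier libraries. It was 3.57 and 2.13 in EILP_WT replicates 1 and 2, 1.46 and 0.22 in sEILP_WT, and 2.69 in ALP_WT replicate 1. ALP_WT replicate 3 had -3.13, and ALP_WT replicate 2, EILP_WT replicate 3 and both EILP_KO libraries had the lowest value. Vdr, the vitamin D receptor, was between 4.35 and 6.41 in ILCP_WT and ranged from the lowest value to 4.67 elsewhere, without a call. The median log2 difference of the 9 partners was 0.78 in ILCP_WT against cEILP_WT, beside -0.07 for all genes.

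Of the 9 co-repressor genes, all were in the table. Nrip1, which encodes the ligand-dependent repressor RIP140, was 8.59 and 8.60 in ILCP_WT, 7.15 ± 0.29 in EILP_WT and 6.94 ± 0.37 in ALP_WT. It rose in ILCP_WT by 1.45 on the log2 scale against EILP_WT (limma adjusted p = 0.00833) and by 1.64 against ALP_WT (adjusted p = 0.00264), and both calls held without each library in turn. Both were lost with only these groups (adjusted p = 0.168 and 0.0563), where limma called 0 and 403 of all genes. They were also lost in either batch alone, which leaves 1 ILCP_WT library. The log2 differences in the first and second batch were 1.35 and 1.61 against EILP_WT, and 1.78 and 1.59 against ALP_WT. Tbl1xr1, an exchange factor of the NCoR complex, rose by 1.05 against ALP_WT (adjusted p = 0.0199), but not without ALP_WT replicate 1, ALP_WT replicate 2 or ILCP_WT replicate 2 (adjusted p up to 0.232 over all its alternatives). Gps2, another NCoR complex subunit, fell by 1.54 in ILCP_WT against EILP_WT (adjusted p = 0.0323). That call held without ILCP_WT replicate 2 alone, and was lost without each of the other 4 libraries (up to 0.294 over all its alternatives). Ncor1 itself, the scaffold, averaged 7.66 to 8.58 in the 6 groups and was called in no comparison. Among co-repressors 2 of 9 rose in ILCP_WT against ALP_WT, where 5.56% of all genes rose and 13.4% were called, with a list median of 0.72 beside -0.09 for all genes. Against EILP_WT 1 of 9 rose and 1 fell, where 6.95% of all genes were called, with a median of 0.24 beside -0.06.

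Of the 9 co-activator genes, all in the table, Med1, the Mediator subunit that contacts liganded nuclear receptors, fell in ILCP_WT. It was 3.27 and 5.22 there and between 5.96 and 7.33 in the 13 other libraries. The log2 differences were -2.72 against cEILP_WT, -2.35 against EILP_WT and -2.28 against ALP_WT (limma adjusted p = 0.00579, 0.0128 and 0.0095). All 3 calls were lost without ILCP_WT replicate 1 (0.057, 0.135 and 0.0759, with up to 0.174, 0.295 and 0.162 over all their alternatives). Ncoa3, a p160 co-activator, rose by 1.43 in ILCP_WT against ALP_WT (adjusted p = 0.0303), a call that ended without ALP_WT replicate 1 or 2 or either ILCP_WT library (up to 0.314 over all its alternatives). The acetyltransferases Ep300 and Crebbp were called in no comparison. The median log2 difference of the 9 in ILCP_WT against ALP_WT was 0.39, beside -0.09 for all genes.

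Of 18 genes known to be induced by retinoic acid, 10 were in the table and tested. In EILP_WT against ALP_WT 1 rose and 2 fell, where 3.21% of all genes were called, and in sEILP_WT against ALP_WT 1 rose and 1 fell, where 0.803% were. In ILCP_WT 2 rose and 1 fell against cEILP_WT (7.41% of all genes called), 1 rose and 1 fell against EILP_WT (6.95%), and 2 rose and 1 fell against ALP_WT (13.4%). Neither cEILP_WT against sEILP_WT nor EILP_KO against EILP_WT had a call by limma among them, where 0% and 0.103% of all genes were called. Itga4 was the gene that rose in EILP_WT and in sEILP_WT against ALP_WT, and was among those that rose in ILCP_WT against ALP_WT. Since the sort selected this difference, its place in these counts carries no support. The list medians in EILP_WT against ALP_WT and ILCP_WT against ALP_WT were 0.32 and -0.11, beside -0.01 and -0.09 for all genes. The called members were homing and surface molecules and a ubiquitin ligase subunit, each with a course of its own.

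Itga4, the alpha chain of the a4b7 integrin used in the gates, was 7.51, 7.60 and 7.54 in ALP_WT, 9.71 and 9.76 in sEILP_WT, 9.36, 9.71 and 9.82 in EILP_WT and 8.22 and 8.13 in ILCP_WT. It rose from ALP_WT by 2.05 in EILP_WT (limma adjusted p = 6.05e-05) and by 2.13 in sEILP_WT (0.000498), and fell in ILCP_WT, by 1.502 against cEILP_WT (0.000517) and by 1.43 against EILP_WT (0.000722), with adjusted p up to 0.127, 0.133, 0.156 and 0.14 over the alternatives of these 4 calls. Against ALP_WT it was 0.62 higher in ILCP_WT (adjusted p = 0.0475), a call lost without any 1 library (up to 0.177 over all its alternatives). As a gate gene, its difference between ALP_WT and the others was selected by the sort.

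Ccr9, the gut- and thymus-homing chemokine receptor, followed a different course. It was 5.78, 2.59 and 3.19 in ALP_WT, at the lowest value in all EILP_WT, sEILP_WT and EILP_KO libraries and in 2 of 3 cEILP_WT libraries, and 8.27 and 8.77 in ILCP_WT. Limma called it lower in EILP_WT than in ALP_WT (adjusted p = 0.00449), and higher in ILCP_WT than in EILP_WT (0.000229) and cEILP_WT (0.000258). These 3 calls held without each library in turn but not with only these groups (0.106, 0.137 and 0.0892). In that setting limma called 60 of all genes in EILP_WT against ALP_WT and 0 in each of the other comparisons. The calls were also lost in the second batch alone, which leaves 1 library each of EILP_WT, cEILP_WT and ILCP_WT. The log2 differences there were -7.30, 13.18 and 12.91. The dendritic cell markers as a list were also highest in ALP_WT, but the list holds Ccr9 itself and Flt3, a gate gene selected as high there. The part of dendritic cells in the level of Ccr9 was not tested. It was also called lower in sEILP_WT than in ALP_WT (0.0218), which was lost without ALP_WT replicate 1 or either sEILP_WT library (up to 0.167 over all its alternatives). Rxrg, Rarg and Ccr9 thus shared their highest libraries, ILCP_WT, but not their order below them.

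Asb2, a ubiquitin ligase subunit first described as retinoic acid-induced in leukaemia cells, was 7.28 and 7.35 in ILCP_WT and at the lowest value in all ALP_WT and cEILP_WT libraries. The calls for ILCP_WT were adjusted p = 0.00415 against ALP_WT (up to 0.1315 over its alternatives) and 0.0083 against cEILP_WT, the second lost without ILCP_WT replicate 1 (0.0682, in a range of 0.00163 to 0.1365 over its alternatives). It was 3.59 and 3.21 in sEILP_WT and 3.61 and 4.20 in EILP_KO. Cd38, an ectoenzyme with a retinoic acid response element, was 4.51, 5.28 and 2.11 in ALP_WT, and all EILP_WT and ILCP_WT libraries had it at the lowest value (limma adjusted p = 0.021 and 0.0125). The first call was lost without ALP_WT replicate 1 or 2 or EILP_WT replicate 2 or 3, and the second without either ILCP_WT library (up to 0.249 and 0.212 over all their alternatives).

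**Figure D3:**
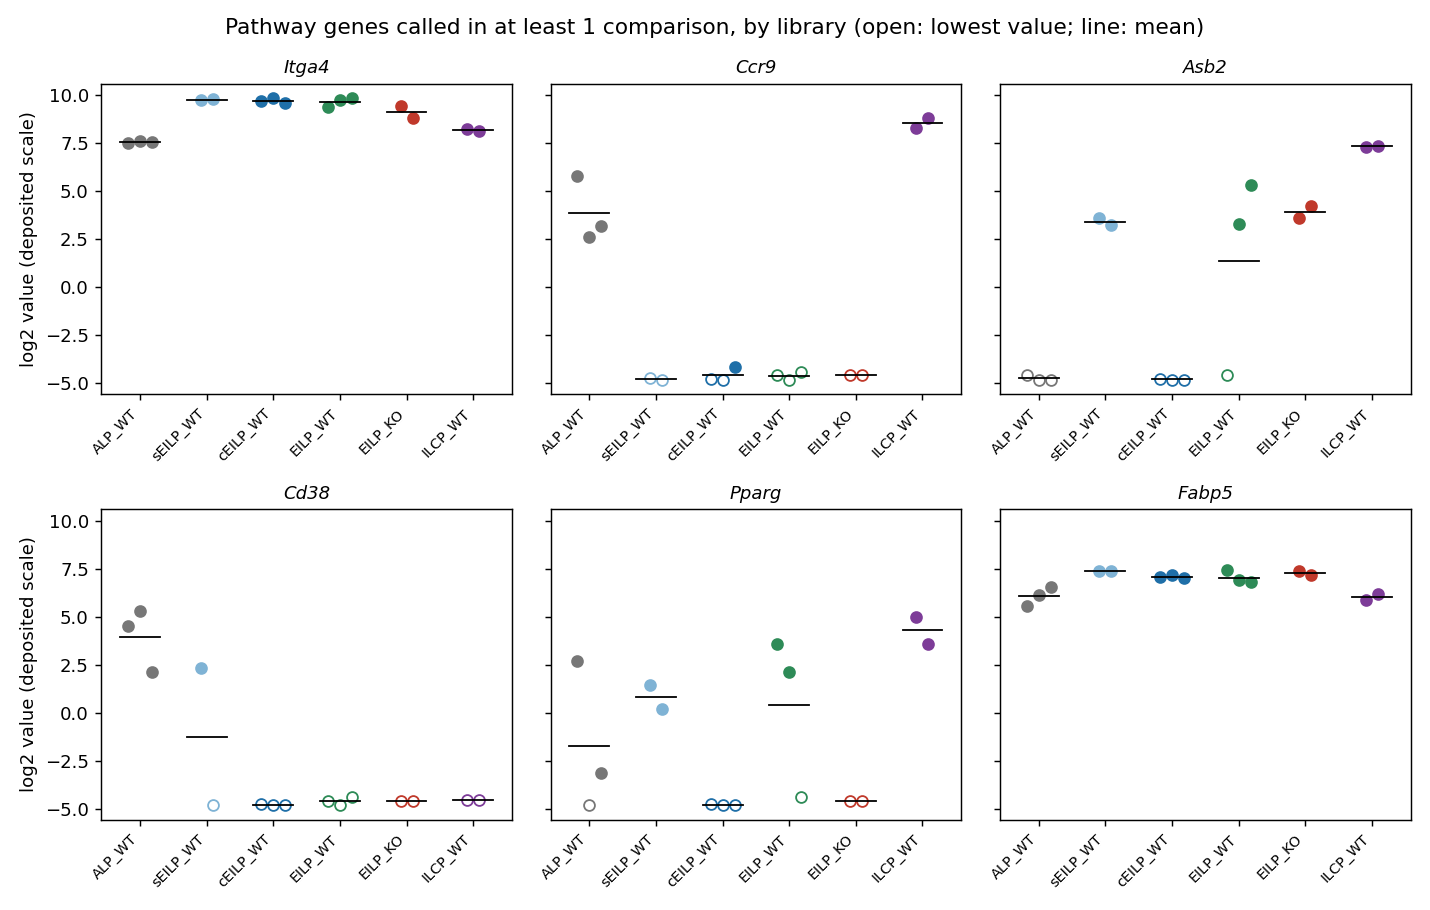
Deposited log2 values (vertical axis) of 6 pathway genes that were called in at least 1 comparison, in the 6 groups (horizontal axis), with 1 circle per library, open at the lowest value, and a line at the group mean. Itga4 and Fabp5 vary within about 2.5 log2 units, whereas Ccr9, Asb2, Cd38 and Pparg switch between the lowest value and values up to 8.77, with Ccr9 and Asb2 highest in ILCP_WT and Cd38 highest in ALP_WT.

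The receptors' patterns were compared with each other over the 15 libraries, which share groups, batches and normalization, as descriptions without a test. Rxrg was most like Rarg (Pearson r = 0.85), then Rxra (0.63) and Rara (0.50). Rxra had r = 0.48 with Rarg and 0.49 with Rara, and Rarg had 0.44 with Rara. Rxrb ranged from -0.38 with Rara to 0.10 with Rarg. Rxrg was chosen for its rise, and its likeness to Rarg rests on libraries that this choice used.

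Among the genes of the table most like Rxrg were Adam8 (r = 0.92), a membrane metalloprotease, Tle3 (0.91), a Groucho-type co-repressor that binds Tcf7 family proteins, and Kdm7a (0.91), a histone demethylase. They were followed by Txk (0.90), a Tec family kinase of T and NK cells, and by the T cell receptor segments Trbj1-1, Trbd1 and Tcrg-V4 (0.89 each). Adam8, Txk and the 3 segments were, like Rxrg, at the lowest value in all ALP_WT libraries. Txk averaged 4.87 ± 0.75 in cEILP_WT and 7.02 ± 0.57 in ILCP_WT and was at the lowest value in both sEILP_WT libraries. Tle3 ran over a far smaller range, from 6.05 ± 0.16 in ALP_WT to 7.41 ± 0.27 in ILCP_WT.

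Most like Rarg was Id2 (r = 0.98), the inhibitor of E proteins that all ILC require, which averaged 4.34 ± 0.73 in ALP_WT, 8.30 to 9.69 in the EILP groups and 11.03 ± 0.28 in ILCP_WT. Ckb (0.97), a creatine kinase, and Ccl5 (0.96), a chemokine, came next. Rxra was most like Ikzf2 (0.91), which encodes Helios, Unc13d (0.91), a granule release factor, and Mcoln3 (0.89), a lysosomal channel. Rara was most like Eif4e2 (0.92), Ppt2 (0.91) and Lonp2 (0.88), all highest in ILCP_WT. The closest genes to Rxrb were AW554918 (0.84), Plaa (0.82) and Nelfe (0.81).

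**Figure D4:**
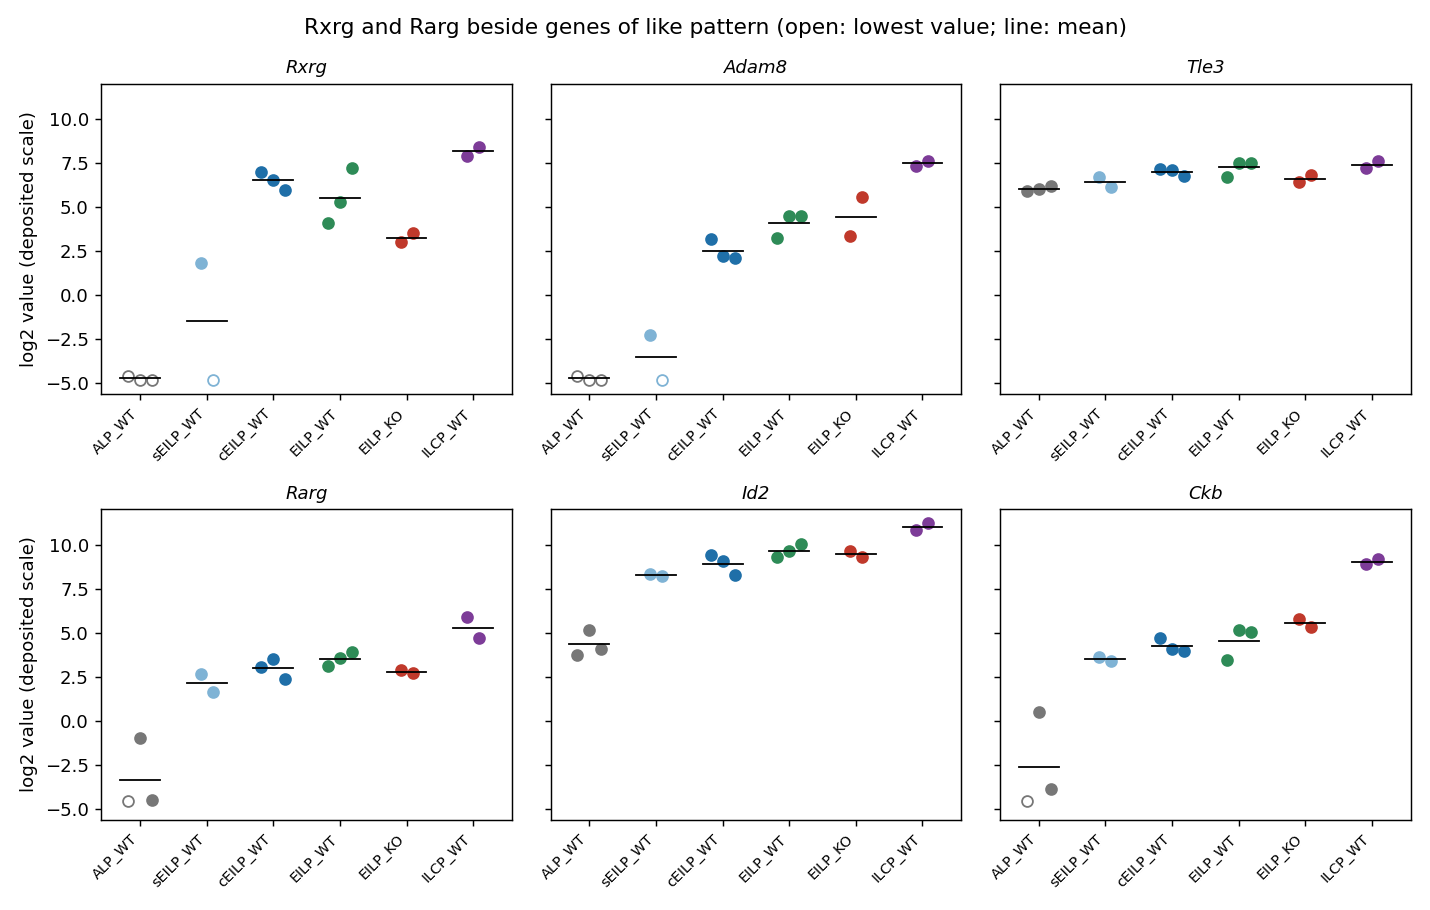
Deposited log2 values (vertical axis) of Rxrg and Rarg beside 2 genes each from those with the highest Pearson correlation to them, in the 6 groups (horizontal axis), with 1 circle per library, open at the lowest value, and a line at the group mean. Adam8 shares with Rxrg the lowest value in ALP_WT and the highest in ILCP_WT. Its EILP_KO mean lies above those of EILP_WT and cEILP_WT, but its EILP_KO libraries overlap those of EILP_WT. Tle3 runs over a far smaller range, and Id2 and Ckb follow Rarg with a step between ALP_WT and all other groups.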

How the data were processed

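The deposited table holds log2 values for 12798 genes in 15 libraries. Their quartiles are nearly the same in every library and their linear sums are nearly equal and of per-million size, so they were read as quantile-normalized log2 per-million values. Per the submitters' processing notes the authors used bcl2fastq 2.17, STAR 2.5.2b, RSEM 1.2.23 and limma on mm10. The annotation, offset and strand setting are not given in the sources used here. A further 24 columns without name or values were not used. No counts are in the table, so no depth or detection limit was computed.

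The 12572 genes that reached 0 on the log2 scale in 2 or more libraries were fitted with limma 3.58.1 in R 4.3.3, with group and batch as terms over all 15 libraries and an intensity trend. P-values were adjusted by Benjamini-Hochberg over all tested genes, with a threshold of 0.05, after the script was tested on simulated data. Group means are given ± SD of deposited values. Alternatives were other normalizations and filters, no batch term, single batches, only the groups compared, a replicate block and leaving out each library. Counts without EILP_WT replicate 3 were added after the data were seen.

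The members, gene lists and markers were chosen with earlier results of these data known. Named genes are the receptors, gate genes, list members that were called or had the highest mean values, the 8 genes most correlated with Rxrg and the 3 with each other receptor, some of which are not reported here. Aldh1a1, Rarb, Vdr, Ncor1, Ep300, Crebbp and the genes next to each receptor by RefSeq coordinates were named after their values were seen where this rule does not cover them.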

Additional observations from a re-analysis of the deposited data

How the results depend on the processing

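The number of receptors called was the same under both other normalizations, both other filters and with values below 0 raised to 0, and moved under settings that use fewer libraries or another model. In EILP_WT against ALP_WT it was 1, against 0 in the second batch alone and 0 with only these groups, and 0 to 2 when 1 library was left out. In sEILP_WT against ALP_WT it was 0, and 0 to 1 with a library left out. In ILCP_WT against cEILP_WT it was 1, against 0 in the first batch alone, 0 in the second, 0 under the replicate block, 0 with only these groups, and 0 in all 5 fits that left out a library. In ILCP_WT against EILP_WT it was 0, against 1 without the batch term. In ILCP_WT against ALP_WT it was 2, against 1 in the first batch alone, 0 in the second and 0 with only these groups, and 1 to 3 with a library left out. For the F test over all groups it was 2, against 0 in either single batch, 1 under the replicate block, 1 without the intensity trend, and 1 to 2 with a library left out. With only the groups compared, limma called 60 of all genes in EILP_WT against ALP_WT and 403 in ILCP_WT against ALP_WT. It called 0 in ILCP_WT against cEILP_WT, so the receptor count of 0 there was shared by every gene. A single batch leaves 1 library in some groups, so a count of 0 there says nothing particular to the receptors. Fewer libraries leave fewer degrees of freedom in the batch, group and leave-out fits. For the other settings the cause was not tested.

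No call was attached to the differences that reversed. Rara in sEILP_WT against ALP_WT was 0.05, and -0.0049 without the batch term, -0.54 in the first batch alone and with only these groups, -0.0303 under the replicate block, and -0.10 to 0.60 with a library left out. Rxrb was -0.16 in ILCP_WT against ALP_WT and 0.48 in the first batch (-0.46 to 0.10 with a library left out). It was -0.13 in EILP_KO against EILP_WT and 0.0162 in the first batch and 0.0157 under the replicate block (-0.38 to 0.10). With a library left out it ranged from -0.18 to 0.40 in sEILP_WT against ALP_WT and from -0.25 to 0.16 in cEILP_WT against sEILP_WT. Rxra in ILCP_WT against cEILP_WT was -0.12, 0.19 under the replicate block and -0.77 to 0.61 with a library left out, and in ILCP_WT against EILP_WT it was -0.996 to 0.38. Same-numbered replicates did not deviate together (correlations of -0.05 to 0.05), so the numbers were not taken to pair the samples.

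Over all alternatives the number of genes called ranged from 0 to 468 in EILP_WT against ALP_WT (404 in the model reported), 0 to 153 in sEILP_WT against ALP_WT (101), 0 to 9 in cEILP_WT against sEILP_WT (0), 0 to 1140 in ILCP_WT against cEILP_WT (932), 0 to 1046 in ILCP_WT against EILP_WT (874), 0 to 1861 in ILCP_WT against ALP_WT (1687) and 0 to 54 in EILP_KO against EILP_WT (13). Without EILP_WT replicate 3, chosen after seeing the data, genes induced by retinoic acid had 2 calls in place of 3 in EILP_WT against ALP_WT. Over all genes that comparison then had 177 calls in place of 404. In ILCP_WT against EILP_WT co-repressors had 1 in place of 2, while carriers and breakdown and other nuclear receptors each had 1 in place of 0. Groups of 2 or 3 libraries, unknown depth and values set by an offset below 0 limit what can be said of genes near the lowest value.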

Other observations

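Of 29 nuclear receptors outside the RAR and RXR genes and the list of RXR partners, 15 were in the table and tested. In ILCP_WT against ALP_WT their median log2 difference was 0.64, beside -0.09 for all genes. Rora, which encodes the orphan receptor RORα required for group 2 ILC, averaged 1.30 ± 2.73 in ALP_WT, 4.56 ± 0.06 in sEILP_WT, 7.85 ± 0.53 in cEILP_WT, 7.04 ± 1.03 in EILP_WT and 10.31 ± 0.42 in ILCP_WT. Its difference between ILCP_WT and ALP_WT was 9.25 on the log2 scale (limma adjusted p = 0.0133), and the call was lost without either ILCP_WT library (0.0717 and 0.0634, with up to 0.262 over all its alternatives). Esr1, the estrogen receptor, averaged 6.53 ± 0.49 in ALP_WT and -2.35 ± 3.12 in ILCP_WT, and fell by 9.34 (adjusted p = 0.0182), a call lost without ALP_WT replicate 2 or 3 or ILCP_WT replicate 1 (up to 0.167 over all its alternatives).

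Hnf4a, a receptor best known from liver and gut, differed among the EILP groups, which also differ in reporter strain or Tcf7 genotype. It was at the lowest value in all 3 EILP_WT libraries, while sEILP_WT averaged 3.48 ± 0.51, cEILP_WT 4.09 ± 0.96 and EILP_KO 3.60 ± 0.20. Against ALP_WT (5.15 ± 1.49) it was called lower in EILP_WT (limma adjusted p = 0.00264). This call held without each of the 6 libraries but not with only these groups (0.0734), where 60 of all genes were called. In the second batch alone, which leaves 1 EILP_WT library, Hnf4a differed by -8.83, without a call. In ILCP_WT it fell against ALP_WT by 7.45 (adjusted p = 0.00779), lost without ILCP_WT replicate 1, and against cEILP_WT by 6.48 (adjusted p = 0.0254), lost without cEILP_WT replicate 2 or 3 or ILCP_WT replicate 1 (up to 0.212 and 0.284 over all their alternatives). The difference between EILP_KO and EILP_WT did not pass the test (adjusted p = 0.0995).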
